A study of Mus musculus with 24 samples.

Results

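The type I interferon response genes examined here are 44 mouse genes, 42 that cells induce or use after interferon alpha or beta and the 2 chains of the receptor for those interferons. They were chosen by symbol from a list of known response genes, and 44 of the 44 were found among the 55487 genes listed for each library. In every library each of the 44 had at least 8 counts. The annotation calls 43 of them protein coding and Mx2 a polymorphic pseudogene.

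The study measured messenger RNA in colon and colorectal tumours of C57BL/6 mice, either wild type (WT) or with the Wnt pathway scaffold Axin1 knocked out in intestinal epithelial cells only (KO). Colon came from untreated mice and from mice given dextran sulfate sodium (DSS), a detergent-like polymer that injures the colon lining, and killed on day 7 or day 13. Tumours were raised with azoxymethane, a carcinogen, followed by DSS. Biological replicates, 3 to a group, are numbered here only for naming. The 8 groups are untreated WT, untreated KO, WT on DSS day 7, KO on DSS day 7, WT on DSS day 13, KO on DSS day 13, WT tumours after azoxymethane and DSS, and KO tumours after azoxymethane and DSS. Every group shares the C57BL/6 background, and no group received azoxymethane alone. The Cre line or promoter behind the knockout, the age of the mice and whether a library held 1 mouse were not stated in the labels used here, and p-values measure only the spread between these libraries. The tissue was whole, so epithelium, where Axin1 was removed, was sequenced together with muscle, stroma and immune cells. Axin1 lay between 47.4 and 58.8 CPM (counts scaled to library size) in the 12 WT libraries and between 13.5 and 19.7 CPM in the 12 KO libraries.

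Type I interferons bind a receptor made of the chains IFNAR1 and IFNAR2, whose kinases activate STAT2. STAT2 joins IRF9 in a complex, ISGF3, that binds a short element with repeated GAAA in the promoters of its targets. The targets include sensors of viral RNA and DNA, enzymes and binding proteins that block viral replication, and IRF7, which feeds back on interferon production. Many of the same genes also answer to type III interferon, which acts mainly on epithelium in the gut, and some answer to interferon gamma from T and NK cells.

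Promoters of some members, picked for display, are shown to let the element be seen in its setting. RefSeq windows of 300 bases (250 before the start site and 50 after, build GRCm38.p6) were found for 34 of the 44 genes. Windows are not used here for Usp18, Dhx58, Oas2, Ifi27l2a, Parp9, Parp14, Rtp4, Mx2, Zbp1 and Mx1. The motif searched, the core of the interferon-stimulated response element, was GAAA, any 2 bases and GAAA again, read on both strands (TTTC, any 2 bases and TTTC on the other), and matches may overlap. Some genes have more than 1 window, 39 in all, and were counted once. At least 1 match stood in a window of 16 of the 34 genes (47.1%) against 3.99% of the 27025 genes with a window, and 9 of the 34 held 2 or more, against 0.266%. Every promoter printed below except that of Irf7 is from those 9, so the printed set overstates how common the element is among the members. By role, a match was found in 4 of 4 sensors, 6 of 9 IFIT and OAS genes, 4 of 7 other antiviral effectors, 1 of 3 transcription factors, 1 of 2 ISG15 system genes and 0 of 9 genes of the remaining roles. Of the 27 matches, 17 began within the 150 bases before the start site. A match is a run of letters and not a shown binding site, and a window without one says nothing about the factor.

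Each sequence below is 5′ to 3′ on the gene's strand, with matches in capitals, and all but that of Ifitm3 are cut to the bases outside the annotated gene. Isg15 holds 3 overlapping matches, chr4:156200819-156201068, minus strand. Ifit1 holds 2, chr19:34640639-34640870, plus strand. The neighbouring Ifit3 (chr19:34583279-34583528, plus strand) and Ifit3b (chr19:34607707-34607956, plus strand) hold 2 each in nearly the same stretch. Oas1a (chr5:120907526-120907775, minus strand) and Oas1g (chr5:120887614-120887863, minus strand) both end in the same pair of overlapping matches. Irf7 (chr7:141266482-141266674, minus strand) holds none. Ifitm3, which with the receptor chains was the exception in KO tumours, has both of its matches in the 27 bases at chr7:141010716-141010742, minus strand, after the start site and inside the annotated gene.
Isg15: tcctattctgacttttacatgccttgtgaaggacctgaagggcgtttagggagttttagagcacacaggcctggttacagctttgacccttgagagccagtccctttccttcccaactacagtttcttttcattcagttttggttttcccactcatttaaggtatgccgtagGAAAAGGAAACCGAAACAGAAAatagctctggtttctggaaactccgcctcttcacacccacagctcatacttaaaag
Ifit1: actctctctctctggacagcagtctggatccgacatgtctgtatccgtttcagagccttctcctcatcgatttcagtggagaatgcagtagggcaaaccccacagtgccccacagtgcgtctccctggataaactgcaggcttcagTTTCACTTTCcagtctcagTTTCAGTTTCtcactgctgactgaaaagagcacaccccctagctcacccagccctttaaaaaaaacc
Ifit3: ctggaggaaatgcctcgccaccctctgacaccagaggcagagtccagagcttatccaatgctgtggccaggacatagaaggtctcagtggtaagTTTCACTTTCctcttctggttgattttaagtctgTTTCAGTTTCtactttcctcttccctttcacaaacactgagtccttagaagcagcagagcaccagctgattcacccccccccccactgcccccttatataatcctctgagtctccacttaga
Ifit3b: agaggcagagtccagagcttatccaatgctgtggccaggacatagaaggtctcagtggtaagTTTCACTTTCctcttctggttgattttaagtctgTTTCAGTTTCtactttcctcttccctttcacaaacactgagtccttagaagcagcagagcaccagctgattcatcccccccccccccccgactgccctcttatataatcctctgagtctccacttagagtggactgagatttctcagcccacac
Oas1a: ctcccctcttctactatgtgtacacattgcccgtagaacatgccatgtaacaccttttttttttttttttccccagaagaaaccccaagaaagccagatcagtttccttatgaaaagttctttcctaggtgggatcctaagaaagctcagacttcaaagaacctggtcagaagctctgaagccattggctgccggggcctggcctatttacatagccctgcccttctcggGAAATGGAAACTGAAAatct
Oas1g: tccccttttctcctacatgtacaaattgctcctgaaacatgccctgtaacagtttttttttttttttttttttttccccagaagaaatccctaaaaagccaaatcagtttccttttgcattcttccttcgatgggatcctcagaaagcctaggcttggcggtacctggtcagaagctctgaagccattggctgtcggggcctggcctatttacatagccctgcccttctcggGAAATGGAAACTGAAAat
Irf7: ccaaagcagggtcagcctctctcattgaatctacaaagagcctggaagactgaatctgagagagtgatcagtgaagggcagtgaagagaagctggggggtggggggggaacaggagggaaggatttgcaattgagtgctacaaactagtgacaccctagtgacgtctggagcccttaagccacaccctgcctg
Ifitm3: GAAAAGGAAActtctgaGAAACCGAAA

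Several members are neighbours in the genome (GENCODE positions on GRCm38). On chromosome 19, Ifit2 (chr19:34550694-34576419), Ifit3 (chr19:34583531-34588731), Ifit3b (chr19:34607970-34613401) and Ifit1 (chr19:34640871-34650009) lie side by side on the plus strand. On chromosome 5, Oas3 (chr5:120753098-120777661), Oas2 (chr5:120730333-120749853), Oas1g (chr5:120876142-120887613) and Oas1a (chr5:120896256-120907521) form a cluster. On chromosome 16, Parp9 (chr16:35938470-35972605), Dtx3l (chr16:35926511-35939151) and Parp14 (chr16:35832874-35871544) stand together, with the ends of Parp9 and Dtx3l overlapping on opposite strands, as do Mx1 (chr16:97447035-97462907) and Mx2 (chr16:97535308-97560900) and the receptor genes Ifnar2 (chr16:91372783-91405589) and Ifnar1 (chr16:91485238-91507441). Irf7 (chr7:141262706-141266481) and Ifitm3 (chr7:141009586-141010770) are on chromosome 7, Isg15 (chr4:156199424-156200818) on chromosome 4 and Zbp1 (chr2:173206612-173218923) on chromosome 2.

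Libraries held 15653300 to 28066996 counts, and no pair of libraries in a group was a copy. Read from sex-linked transcripts, the 3 day 13 WT libraries were male and the 3 day 13 KO libraries female, so genotype and sex cannot be told apart at day 13. The 3 untreated KO libraries were male, so in KO sex and the change from untreated to day 13 cannot be told apart either. WT day 7 libraries were all female, while untreated WT and KO day 7 held both sexes. Untreated KO library 3 held 38490.0 CPM of 10 colon epithelium markers, against 14530.0 to 15700.0 in the other 5 untreated libraries. Squamous epithelium markers, listed here as a sign of anal skin, summed to 4007 CPM in WT day 13 library 3 and 987 CPM in KO day 13 library 1. They summed to 534 CPM in KO tumour 2 and to at most 108 CPM in the rest. The origin of this squamous RNA was not tested. The Illumina sample numbers 15 and 16 each occur in 2 colon libraries, which touches untreated WT 2, untreated KO 2, WT day 7 library 2 and KO day 7 library 3.

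Measured per transcript length (TPM, which scales counts to gene length and library size), the members spanned a wide range in untreated WT colon. Ifitm3, a membrane protein that blocks virus entry, had the highest mean at 94.7 TPM, followed by Lgals3bp, a secreted glycoprotein, at 79 TPM and Ifi27l2a, which encodes a small hydrophobic protein, at 49.7 TPM. Oas1a, an enzyme that makes oligoadenylates on viral RNA, had 41.1 TPM and Irf7 38.2 TPM. The lowest means were those of Ifi44 (0.523 TPM), Mx2 (0.627 TPM) and Oas3 (0.64 TPM). All further levels are CPM with library sizes scaled by TMM, and serve to compare 1 gene between libraries.

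The 44 genes moved largely as a block from library to library. As a summary, each member was set against its mean in untreated WT colon on the log2 scale (CPM + 0.1), and the median over the 44 was taken for each library. In untreated WT this median was -0.10, -0.01 and 0.09, and in untreated KO it was 0.97, 0.22 and 2.37. On DSS day 7 it was 0.54, 0.92 and 1.35 in WT and 0.40, 0.73 and 0.35 in KO. It came to 1.45, 0.81 and 0.86 in WT and 0.72, 0.32 and 0.67 in KO on day 13. Tumours had 1.87, 0.39 and 2.12 in WT and 0.79, 1.01 and 0.73 in KO. Every library of the other 7 groups lay above the 3 untreated WT libraries, and untreated KO 3 and WT tumours 1 and 3 lay above all the rest.

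**Figure D1:**
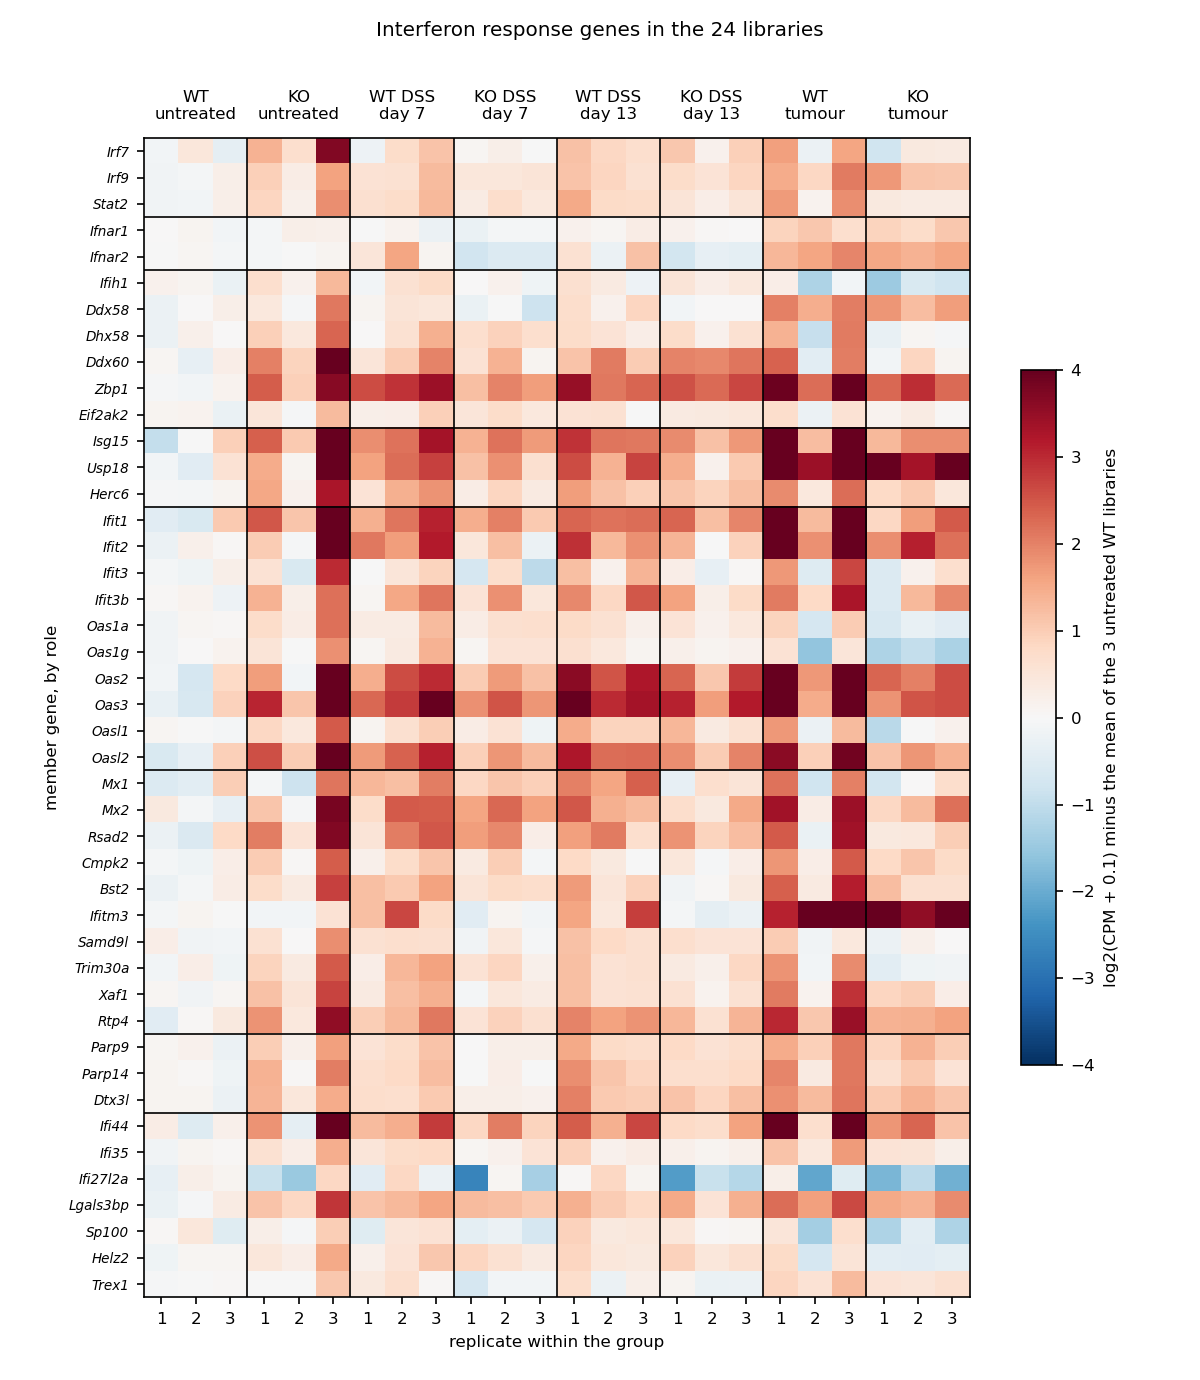
Heat map of the 44 members (vertical axis, grouped by role) in the 24 libraries (horizontal axis, 3 per group); colour is log2(CPM + 0.1) minus the mean of the 3 untreated WT libraries. Untreated KO library 3 and WT tumours 1 and 3 stand out in red, with medians of 2.37, 1.87 and 2.12.

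Untreated KO library 3 carried the highest value of all 24 libraries for 27 of the 44 members, against 8.89% of the 19056 genes tested over the 24 libraries. WT tumour 3 held the highest value for 15, against 7.5%, WT tumour 2 for Ifnar1 and WT day 13 library 3 for Mx1. Within untreated KO, library 3 was the highest in 43 members (41.2% of all genes), with Ifnar1 the exception. Its value was at least 2 times that of the next library in 32 members (9.19%). The order library 3, then 1, then 2 held in 41 members (21.4%), with Ifnar1, Ifnar2 and Trex1 as the exceptions.

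In untreated colon, interferon response genes were higher on average in KO than in WT, with a large spread between the KO libraries. No member passed edgeR's quasi-likelihood test with Benjamini-Hochberg adjustment at 0.05 (0 of 44, against 0.011% of the 18102 genes tested). At an unadjusted p under 0.05, 37 members were higher in KO, against 3.94% of genes higher. DESeq2 called 18 members higher. The share of all genes is not given for DESeq2 or for fits without a library, so such counts have no background here or below. The median log2 fold change was 1.47 over the members and -0.01 over all genes, 42 of 44 values lay above 0, and in 23 members every KO library exceeded every WT library (9.06% of genes). In whole tissue, fewer cells of a type and less RNA per cell cannot be told apart, here and in each comparison.

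Among the signalling genes, Irf7, the factor that amplifies interferon production, had 42.9, 62.8 and 36.1 CPM in untreated WT and 122, 73.5 and 597 CPM in untreated KO. The groups did not overlap, and library 3 of KO alone was several times higher than any other. The log2 fold change was 2.45 ± 0.59 (SE), edgeR adjusted p = 0.487. Stat2, the subunit of ISGF3 that is specific to type I and III signalling, read 33, 33.7 and 42.6 CPM in WT and 65.2, 42 and 132 CPM in KO, with KO library 2 inside the WT range. For both receptor chains the groups overlapped. Ifnar1 had 44.1, 47.2 and 40.3 CPM in WT and 41.4, 51.1 and 50.4 CPM in KO, and the log2 fold change was 0.09 ± 0.11 for Ifnar1 and -0.03 ± 0.34 for Ifnar2.

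The sensors gave the smallest adjusted p of the members. Zbp1, a sensor of Z-form nucleic acid that triggers cell death, had 11.4, 10.9 and 13 CPM in WT and 63, 22.7 and 149 CPM in KO. All KO libraries lay above WT, over a wide range. Its log2 fold change was 2.7 ± 0.52, with edgeR adjusted p = 0.405. Ddx60, a helicase that promotes RNA sensing, read 8.62, 6.48 and 9.96 CPM in WT and 33.9, 15.2 and 276 CPM in KO (3.67 ± 0.82, edgeR adjusted p = 0.487). Ifih1, which encodes the RNA sensor MDA5, read 92.4, 89.4 and 68.5 CPM in WT and 131, 92.8 and 205 CPM in KO, with KO library 2 barely above WT.

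The ISG15 system and the IFIT and OAS families had the widest gaps. Isg15, a ubiquitin-like protein joined to other proteins, read 1.26, 2.45 and 4.98 CPM in WT and 13.5, 5.24 and 126 CPM in KO. KO library 2 was just above the highest WT library and KO library 3 far above all. The log2 fold change was 4.03 ± 0.92, edgeR adjusted p = 0.487. Oas3, which makes long oligoadenylates that activate RNase L, had the largest fold change of the members: 1.43, 1.11 and 3.42 CPM in WT, 15.4, 3.97 and 194 CPM in KO, and 5.13 ± 1.14 on the log2 scale. The same test gave Oas3 an edgeR adjusted p of 0.487, while DESeq2 gave 0.000309. Oas2, its close relative, read 1.69, 1.11 and 3.29 CPM in WT and 6.03, 1.68 and 126 CPM in KO, where library 2 fell inside the WT range (edgeR adjusted p = 0.563, DESeq2 0.0112). Oasl2, an OAS-like protein, read 9.66, 11.9 and 29 CPM in WT and 89.9, 30.5 and 549 CPM in KO. Herc6, the mouse ligase that attaches ISG15, read 5.85, 5.73 and 6.49 CPM in WT and 17.6, 6.74 and 59.3 CPM in KO. Within KO both gave the order of libraries seen in Isg15, which held in 41 members (21.4% of genes).

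Of the remaining roles, Lgals3bp read 68.2, 80.0 and 103 CPM in WT and 181, 148 and 604 CPM in KO without overlap. Parp14, a mono-ADP-ribosyltransferase, read 64.2, 62.2 and 53.2 CPM in WT and 156, 61.7 and 247 CPM in KO, where library 2 lay among the WT libraries. Ifi27l2a was the lowest in its fold change: 8.06, 12 and 10.9 CPM in WT and 5.5, 3.59 and 18.3 CPM in KO, or -0.21 ± 0.64. Its sign turned when KO library 1 or 2 was left out (0.05 and 0.17).

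One library on each side of the KO spread governed these values. Without untreated KO library 3 the median log2 fold change of the 44 was 0.64, no member was called, and Oas2 went to 0.91 and Oas3 to 2.27. Without untreated KO library 2, 13 members were called higher, Oas3 among them (edgeR adjusted p = 0.0424). Above all 3 WT libraries lay 44 members in KO library 3 (34.6% of genes), 37 in library 1 (25.7%) and 24 in library 2 (27.2%). Cell type markers also set library 3 apart. The colonocyte gene Car1 read 1514, 1600.0 and 12060.0 CPM, the goblet cell mucin Muc2 1476, 1189 and 10730.0 CPM and the keratin of mature colonocytes Krt20 554, 338 and 2052 CPM in KO 1 to 3. The other epithelium markers of the list varied. Krt19 read 2709, 2751 and 2795 CPM and Cdh1 1536, 1425 and 1198 CPM, with little or no excess in library 3. Epcam (1726, 1623 and 1997 CPM), Krt8 (5067, 4793 and 5812 CPM) and Krt18 (317, 320.5 and 363 CPM) were somewhat higher there. Vil1 read 782.5, 704 and 1159 CPM and Cdx2 18.4, 10.2 and 335 CPM, so that Cdx2 was far higher in library 3. Summed macrophage markers (167, 185 and 94.6 CPM in the same order) were lowest in library 3. General leukocyte markers summed to 46.5, 67.6 and 36.2 CPM in untreated KO and 50.6, 33.9 and 56 CPM in untreated WT. T and NK cell markers summed to 8.17, 6.36 and 11.4 CPM in untreated KO and 4.2, 2.81 and 6.18 CPM in untreated WT. These sums did not overlap between genotypes, though the lowest in KO (6.36 CPM) was barely above the highest in WT (6.18 CPM). In KO their order was library 3, then 1, then 2, but single markers differed. Cd8a (1.375, 0.9355 and 3.0 CPM), Gzmb (1.05, 0.299 and 2.92 CPM), Cd3e, Cd3d and Nkg7 were highest in library 3. Cd4 (2.59, 2.58 and 1.36 CPM) and Ncr1 (0.202, 0.2245 and 0.0401 CPM) were lowest there. The 5 markers of plasmacytoid dendritic cells summed to 792, 709.8 and 852 CPM in KO and 739.5, 605 and 992 CPM in WT, nearly all of it Klk1 (783, 698 and 839.8 CPM in KO), while Siglech, a defining one, read 1.01, 1.05 and 0.0801 CPM and 1.56, 1.03 and 0.578 CPM. Smooth muscle markers were lower in each KO library (3427, 3724 and 3111 CPM) than in each WT library (5802, 7567 and 4966 CPM). The part of these markers in the result was not tested.

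**Figure D2:**
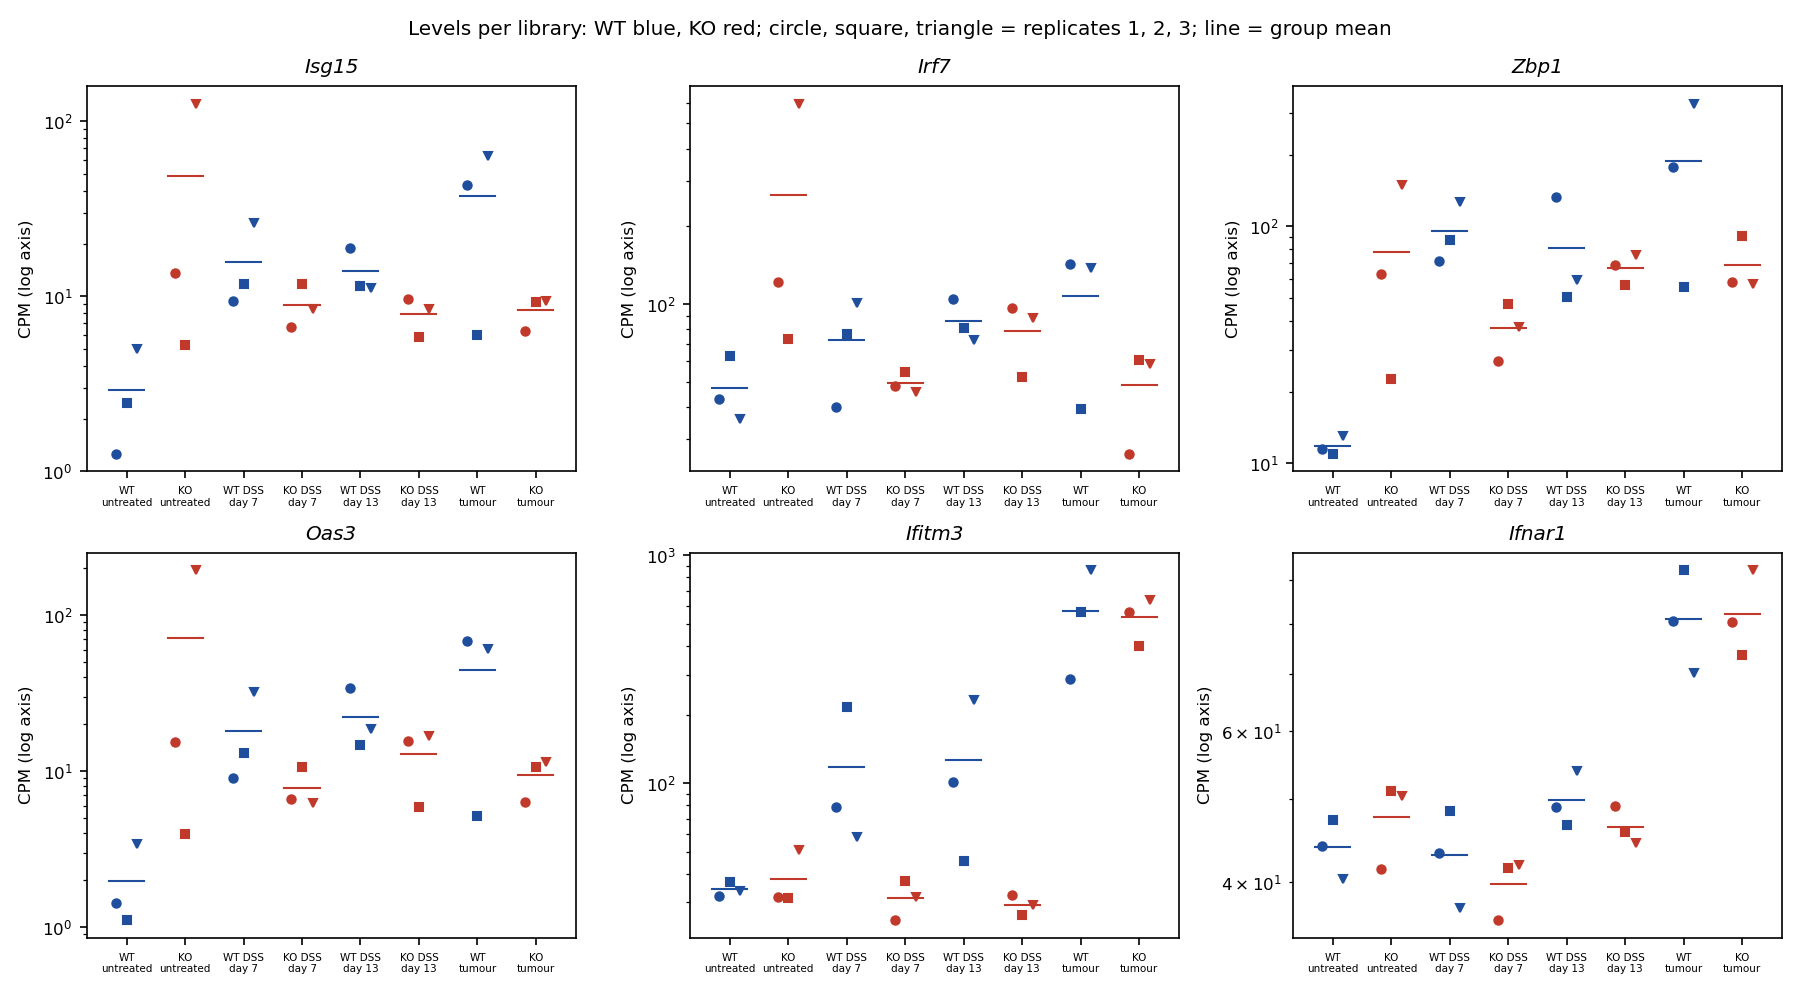
CPM (log axis) of 6 members in the 8 groups; each point is 1 library (circle, square and triangle are replicates 1, 2 and 3), blue is WT, red is KO and the line is the group mean. Isg15, Irf7, Zbp1 and Oas3 show the high untreated KO library 3 and the low WT tumour 2, while Ifitm3 and Ifnar1 were high in the 6 tumours.

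DSS gave WT colon higher levels of most members, of which few passed the test. At day 7, 3 of 44 members rose (Zbp1, Ifitm3 and Lgals3bp; 8.52% of all genes rose) and 0 fell (7.77%), and at day 13, 2 rose (Zbp1 and Dtx3l; 3.21%) and 0 fell (1.03%). Medians of the log2 fold change were 0.86 and 1.03 over the members and 0.03 and -0.003 over all genes. At an unadjusted p under 0.05, 26 members were higher at day 7 (17.0% of genes) and 24 at day 13 (13.1%). Every DSS library exceeded every untreated WT library in 30 members at day 7 (18.7% of genes) and in 32 at day 13 (15.4%). The called shares are near those of all genes at both days. DESeq2 called 17 and 16 higher, with no share of all genes beside these counts. Both days were compared with the same 3 untreated WT libraries.

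Zbp1 rose at both days. It read 71.7, 87.9 and 127 CPM at day 7 and 133, 50.6 and 59.6 CPM at day 13, against 11.4, 10.9 and 13 CPM in untreated WT. No DSS library overlapped the untreated ones. The log2 fold change was 2.96 ± 0.53 at day 7 (edgeR adjusted p = 0.00292) and 2.75 ± 0.53 at day 13 (0.014). Dtx3l, a ubiquitin ligase that works with PARP9, read 50.9, 50.6 and 40.2 CPM untreated, 76.6, 74.7 and 97.2 CPM at day 7 and 188, 96.9 and 92.4 CPM at day 13, with day 13 library 1 the highest. It rose at day 13 (1.39 ± 0.27, edgeR adjusted p = 0.0152), and at day 7 the log2 fold change was 0.76 ± 0.27 (0.0654). Both day 13 calls ended when day 13 library 1 or any untreated WT library was left out, and without day 13 library 2 there were 6 calls. Both held without day 13 library 3 (edgeR adjusted p = 0.0239 for Zbp1 and 0.0191 for Dtx3l).

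Ifitm3 and Lgals3bp rose at day 7. Ifitm3 read 78.8, 216 and 58.1 CPM at day 7 and 101, 45.5 and 232 CPM at day 13, against 32.1, 37 and 33.7 CPM untreated. The spread within each DSS group was wide and each library lay above the untreated ones. Its log2 fold change was 1.72 ± 0.50 at day 7 (edgeR adjusted p = 0.0315) and 1.86 ± 0.50 at day 13 (0.0503). Without day 7 library 2 it fell to 0.95 (edgeR adjusted p = 0.179), and without untreated WT 1, 2 or 3 the p was 0.105, 0.0808 and 0.0837. Lgals3bp read 184, 201 and 245 CPM at day 7 against 68.2, 80.0 and 103 CPM (1.27 ± 0.41, edgeR adjusted p = 0.0479). That call ended when any 1 of the 6 libraries was left out (adjusted p 0.0632 to 0.162), while that of Zbp1 held in each case (0.00441 to 0.0192).

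Other members in WT colon were higher without passing. Oas3 read 9.1, 13 and 32.3 CPM at day 7 and 33.9, 14.6 and 18.7 CPM at day 13, each above the 1.43, 1.11 and 3.42 CPM of untreated WT (3.14 ± 1.06 and 3.47 ± 1.07). Isg15 went from 1.26, 2.45 and 4.98 CPM to 9.37, 11.7 and 26.1 CPM and 19, 11.5 and 11.2 CPM, again without overlap. Irf7 read 40.0, 76.7 and 101 CPM at day 7, where library 1 lay among the untreated values of 42.9, 62.8 and 36.1 CPM. WT day 7 library 1 was the lowest of its group in 35 members (29.1% of genes) and day 13 library 1 the highest in 31 (31.3%). With untreated KO library 3, which is in neither group, taken out of the shared fit, 23 members rose at day 7 and 22 at day 13, and the medians were 0.87 and 1.035. The share of all genes called in that fit is not given here, so these counts have no background beside them. Leukocyte markers in WT summed to 50.6, 33.9 and 56.05 CPM untreated, 122, 246 and 71.4 CPM at day 7 and 189.7, 56.1 and 249.5 CPM at day 13. They were higher with DSS except in day 13 library 2, which was level with the highest untreated library. The part of these markers was not tested.

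In KO colon the members lay lower under DSS than in untreated KO. At day 7, 7 members fell (Irf7, Oasl2, Parp14, Ddx60, Ddx58, Xaf1 and Dtx3l; 4.07% of all genes fell) and 0 rose (8.57%). The median log2 fold change was -0.95, against -0.04 over all genes. All 44 values lay below 0, 30 of them at an unadjusted p under 0.05 (11.7% of genes). In 6 members the groups did not overlap, a smaller share than the 15.9% of all genes. At day 13 no member was called (0 of 44, against 0.0276% of genes in either direction), and DESeq2 called 0. There 21 members were lower at an unadjusted p under 0.05 (4.05%), and the median was -0.93. In 2 members the groups did not overlap, again a smaller share than the 8.44% of all genes. Both comparisons share the same untreated KO libraries, and the shift rested on library 3: without it the medians were -0.17 at day 7 and -0.05 at day 13. The day 13 comparison also sets female libraries against male ones.

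Irf7 read 48.2, 54.6 and 45.6 CPM in KO at day 7, against 122, 73.5 and 597 CPM in untreated KO. The day 7 values were close together and all below the untreated ones. Irf7 fell, with a log2 fold change of -2.41 ± 0.59 (edgeR adjusted p = 0.0151). Ddx60 read 12.5, 21.7 and 8.94 CPM against 33.9, 15.2 and 276 CPM, an overlap through untreated library 2 (-2.9 ± 0.79, 0.0268). Ddx58, which encodes the RNA sensor RIG-I, read 14.2, 16.9 and 9.42 CPM against 22.7, 16.3 and 73.2 CPM (-1.46 ± 0.41, edgeR adjusted p = 0.0316). Again only untreated library 3 was far above the rest.

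Xaf1, an interferon-induced promoter of apoptosis, read 6.25, 9.16 and 8.46 CPM at day 7 against 15.1, 9.58 and 43.7 CPM without overlap (-1.51 ± 0.43, edgeR adjusted p = 0.032). Dtx3l did not overlap either, at 55.3, 55.2 and 52.7 CPM against 121, 64.3 and 132 CPM (-0.96 ± 0.27, 0.0298), while Parp14 at 58.9, 72.4 and 59 CPM against 156, 61.7 and 247 CPM did (-1.28 ± 0.36, 0.0292). No call outlived the omission of untreated library 3, after which the log2 fold change was -0.98 for Irf7 (edgeR adjusted p = 0.0919), -0.77 for Ddx60 (0.348), -0.53 for Ddx58 (0.207), -0.77 for Dtx3l (0.111), -0.78 for Parp14 (0.153) and -0.63 for Xaf1 (0.226). There were 0 calls also without day 7 library 1 or 3, 2 without day 7 library 2, and 25 without untreated library 2.

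Set against each other under DSS, KO libraries were lower than WT in most members, by less than 1 log2 unit at the median. At day 7, 0 of 44 were called by edgeR (0.00552% of genes in either direction), 8 were lower at an unadjusted p under 0.05 (15.3%), 14 were lower without overlap (13.9%), and the median log2 fold change was -0.59 against 0.05 over all genes. The share at an unadjusted p under 0.05 is near the background. Without WT day 7 library 1 or 3 there were 2 calls, and without library 3 the median was -0.25, with 12 members higher and 32 lower. DESeq2 called 2 lower, again without a share of all genes. At day 13, 1 member was lower, Ifitm3 (1.86% of genes), and 0 were higher (0.652%). At an unadjusted p under 0.05, 4 members were lower (11.4%), 11 were lower without overlap (12.3%), and the median was -0.34. It was -0.17 without WT day 13 library 1, -0.52 without KO day 13 library 1 and -0.64 with sex as a covariate.

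Ifitm3 at day 13 was the single call between genotypes within 1 condition. At day 13 it read 32.4, 26.4 and 29.3 CPM in KO and 101, 45.5 and 232 CPM in WT, and at day 7 25, 37.3 and 31.6 CPM in KO and 78.8, 216 and 58.1 CPM in WT. KO libraries on DSS stayed near the untreated level, and all WT libraries on DSS lay above them. It was lower in KO at day 13 by a log2 fold change of -2.1 ± 0.51 (edgeR adjusted p = 0.0427) and read -1.87 ± 0.51 at day 7 (0.0658). The day 13 call ended without WT day 13 library 1 (edgeR adjusted p = 0.0927) or 3 (-1.3, 0.219), the library with the most squamous markers, and without KO day 13 library 1, 2 or 3 (0.134, 0.144 and 0.149). Day 7 became a call without WT day 7 library 1 (0.0473) or 3 (0.0245).

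Ifnar2, the high-affinity chain of the receptor, read 4.91, 5.71 and 5.7 CPM in KO and 11.8, 25.5 and 9.14 CPM in WT at day 7, and 4.95, 6.59 and 6.38 CPM and 12.8, 7.15 and 18.9 CPM at day 13. KO lay below WT at both times without overlap (-1.46 ± 0.35, edgeR adjusted p = 0.0647, and -1.11 ± 0.34, 0.102). Averaged over untreated, day 7 and day 13 colon, 2 members were lower in KO, Ifitm3 (-1.28 ± 0.29, edgeR adjusted p = 0.0264) and Ifnar2 (-0.87 ± 0.20, 0.0284), and 0 higher (3.88% of genes were lower, a share near that of the members, and 0.961% higher). Leaving out single libraries moved these p-values from 0.00352 to 0.0617 for Ifitm3 and from 0.00449 to 0.0641 for Ifnar2. The count became 0 without untreated KO 1, untreated WT 2, KO day 7 library 1 or 3, WT day 13 library 3 or KO day 13 library 1 or 3, and 1 without untreated WT 1 or 3, KO day 7 library 2 or KO day 13 library 2. It was 4 without untreated KO 3. The median of the 44 in this average was 0.20, and ran from -0.08 without untreated KO 3 to 0.33 without the 4 libraries with repeated sample numbers.

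Other members did not pass between genotypes on DSS. Ifit2, an IFIT protein that limits translation, read 9.38, 15.8 and 5.8 CPM in KO and 29.8, 21.6 and 62.1 CPM in WT at day 7 (-1.84 ± 0.86, edgeR adjusted p = 0.183). Mx1, a GTPase that C57BL/6 mice carry with a deletion, read 2.57, 5.18 and 4.65 CPM in KO and 13.3, 9.99 and 17.3 CPM in WT at day 13 (-1.7 ± 0.63, 0.161). Both pairs of groups were apart. At the other end, Helz2, a helicase coactivator, was 0.01 ± 0.29 and Eif2ak2, the kinase PKR that stops translation on double-stranded RNA, 0.06 ± 0.28 at day 7, while Ddx60 (0.52 ± 0.74) and Lgals3bp (0.13 ± 0.40) were the highest at day 13. The signs of Helz2, Eif2ak2 and Lgals3bp turned under some settings. Neutrophil markers were also low in KO on DSS, with 2.74, 1.02 and 2.61 CPM against 41, 168 and 14.9 CPM in WT at day 7 and 10.3, 1.18 and 0.587 CPM against 189, 35.9 and 333 CPM at day 13. Leukocyte markers read 40.1, 37.4 and 27.3 CPM and 22, 57.6 and 49.4 CPM in KO at the 2 times. Fibroblast markers read 351, 619.6 and 524 CPM in KO and 1291, 924 and 2457 CPM in WT at day 13. The part of these markers in the result was not tested.

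**Figure D3:**
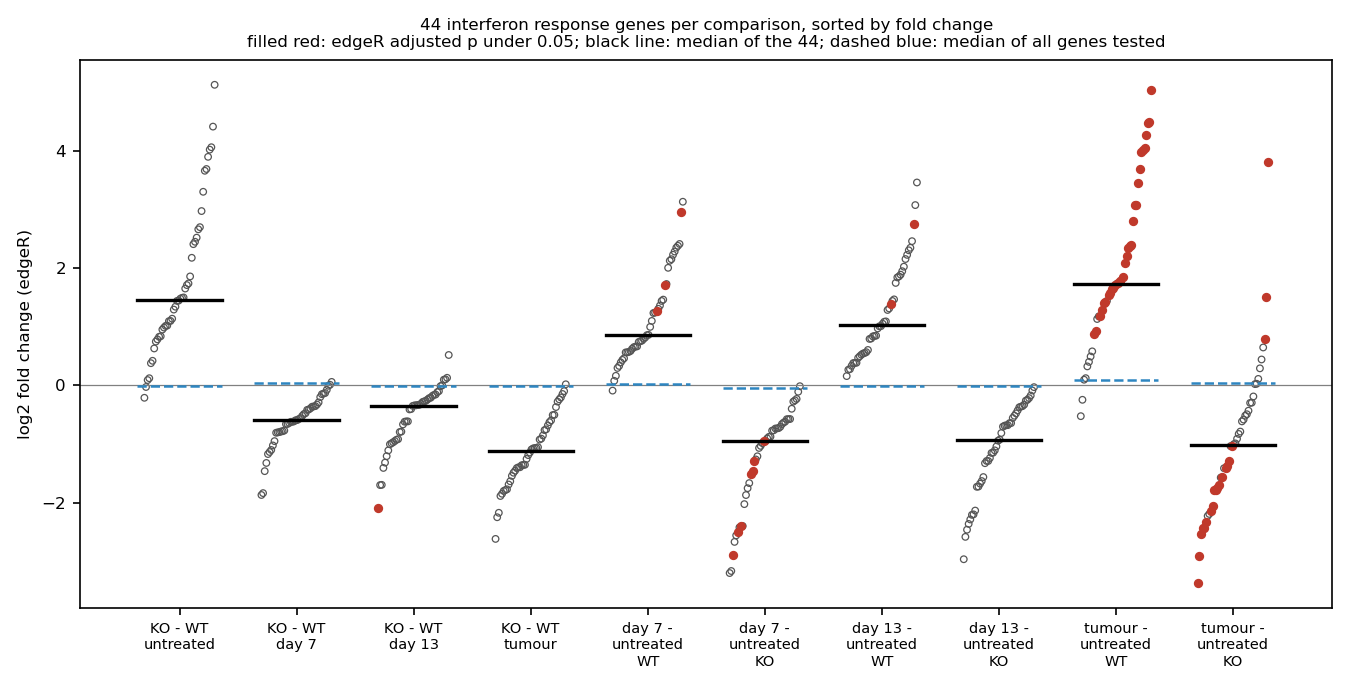
Log2 fold changes (vertical axis, edgeR) of the 44 members in 10 comparisons, each point 1 member sorted by value; filled points have an adjusted p under 0.05, the black line is the members' median and the dashed line that of all genes tested. Filled points are many only in tumours against untreated colon, with 31 higher in WT and 3 higher and 17 lower in KO.

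WT tumours had most of the members above untreated WT colon. Of the 44, 31 rose and 0 fell, against 27.6% and 21.2% of the 19056 genes, and the median log2 fold change was 1.73 against 0.09 over all genes. In 24 members every tumour exceeded every untreated library (33.2% of genes). By role, 2 of 3 signalling genes rose, 2 of 2 receptor chains, 3 of 6 sensors, 3 of 3 genes of the ISG15 system, 6 of 10 IFIT and OAS genes, 8 of 10 other effectors, 3 of 3 ADP-ribosylation genes and 4 of 7 other induced genes. Not called were Irf7, Ifih1, Ddx60, Eif2ak2, Ifit3, Oas1a, Oas1g, Oasl1, Mx1, Samd9l, Ifi27l2a, Sp100 and Helz2. This comparison is between a tumour and whole colon, whose smooth muscle markers summed to 221, 141 and 118 CPM in WT tumours and 5802, 7567 and 4966 CPM in untreated WT.

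Receptor chains and Ifitm3 were above untreated WT in all 3 WT tumours, Ifitm3 over a wide range. Ifnar1 read 80.7, 92.5 and 70.1 CPM in WT tumours against 44.1, 47.2 and 40.3 CPM in untreated WT. Every tumour lay above every untreated library, in a narrow range (0.89 ± 0.12, edgeR adjusted p = 1.73e-05). Ifnar2 read 21.3, 25.4 and 32.4 CPM against 8.32, 8.81 and 8.0 CPM (1.66 ± 0.32, 0.000337). Ifitm3 read 287, 567 and 862 CPM against 32.1, 37 and 33.7 CPM (4.06 ± 0.56, edgeR adjusted p = 1.43e-05), again far apart.

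Most other members were high in tumours 1 and 3 and low in tumour 2. Zbp1 read 178, 55.4 and 330.2 CPM in WT tumours against 11.4, 10.9 and 13 CPM in untreated WT, and tumour 2 was the lowest of the 3 but above untreated colon. It rose by 4.0 ± 0.63 (edgeR adjusted p = 5.41e-05). Usp18, which removes ISG15 and restrains receptor signalling, had the largest fold change: 40.2, 13.2 and 65 CPM against 1.04, 0.791 and 1.73 CPM, or 5.05 ± 0.94 (0.000268). Lgals3bp read 390.5, 260.4 and 519 CPM against 68.2, 80.0 and 103 CPM (2.22 ± 0.41, edgeR adjusted p = 0.000248). Dtx3l read 168, 113 and 206 CPM against 50.9, 50.6 and 40.2 CPM (1.78 ± 0.28, 5.01e-05), and tumour 2 again was the lowest.

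For some members tumour 2 fell to the untreated level. Isg15 read 43, 6.01 and 63.5 CPM in WT tumours against 1.26, 2.45 and 4.98 CPM in untreated WT, with tumour 2 just above (3.7 ± 0.94, edgeR adjusted p = 0.00341). Oasl2 read 183, 28.8 and 218 CPM against 9.66, 11.9 and 29 CPM, where tumour 2 and untreated library 3 overlapped (3.09 ± 0.83, 0.00508). Irf7 read 144, 39.3 and 138 CPM with tumour 2 inside the untreated range, and was not called (1.18 ± 0.60, 0.111). Ifih1 was -0.24 ± 0.34, from 99.4, 35 and 76.8 CPM against 92.4, 89.4 and 68.5 CPM.

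Over the 44 members, tumour 2 was the lowest WT tumour in 41 (27.3% of genes), with Ifitm3, Ifnar1 and Ifnar2 as exceptions. Tumours 1 and 3 were both at least 2 times as high as tumour 2 in 32 (5.41%). Marker sums did not single out tumour 2 among leukocytes (142, 139.6 and 144 CPM) or epithelium (16560.0, 8649 and 8449 CPM). Summed macrophage and monocyte markers (502, 730.4 and 360.0 CPM) and fibroblast markers (1488, 2037 and 1287 CPM) were highest in tumour 2. Single genes differed: Ly6c2 was lowest there (4.72, 1.08 and 5.38 CPM), and Fcgr1 and Dcn were highest in tumour 3. B and plasma cell markers summed to 196, 3.56 and 181 CPM and T and NK cell markers to 17.5, 10.9 and 14.1 CPM, both lowest in tumour 2. Among the genes in these last sums only Cd4 (5.31, 4.3 and 3.82 CPM) was not lowest there. The part of these cells in the difference was not tested. Leaving out single libraries gave 24 to 36 calls.

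In KO tumours against untreated KO colon, 3 members rose and 17 fell (26.4% of genes rose and 23.5% fell), and the median log2 fold change was -1.01 against 0.04 over all genes. Those that rose were the receptor chains and Ifitm3. Those that fell were Irf7, 3 sensors (Ifih1, Dhx58 and Ddx60), Isg15 and Herc6, 6 IFIT and OAS genes (Ifit1, Oas1a, Oas1g, Oas3, Oasl1 and Oasl2), 3 other effectors (Rsad2, Samd9l and Trim30a) and, of the other induced genes, Sp100 and Helz2. In 10 members every tumour lay below every untreated library, a smaller share than the 26.6% of all genes.

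Ifitm3 read 564, 401 and 637 CPM in KO tumours against 31.7, 31.4 and 51 CPM in untreated KO (3.81 ± 0.55, edgeR adjusted p = 2.61e-05), Ifnar1 80.4, 73.5 and 92.4 CPM against 41.4, 51.1 and 50.4 CPM (0.79 ± 0.12, 6.03e-05) and Ifnar2 24.5, 22 and 25 CPM against 7.85, 8.27 and 9.01 CPM (1.51 ± 0.32, 0.000727). All 3 were apart from untreated colon without overlap, as in WT. Ifih1 read 30.4, 54.5 and 47.1 CPM against 131, 92.8 and 205 CPM and fell, with a log2 fold change of -1.7 ± 0.35 (edgeR adjusted p = 0.000587). Oas1a read 32, 40.5 and 36.8 CPM against 83.9, 61.8 and 233 CPM (-1.79 ± 0.42, 0.00194). Oas1g, its neighbour and close copy, read 13.7, 16.7 and 13.3 CPM against 45.6, 32 and 114 CPM (-2.13 ± 0.47, edgeR adjusted p = 0.00116). For these 3 the tumours were below even the lowest untreated library. Reads of Oas1a and Oas1g are shared out by estimate, so their split is uncertain, as is that of Ifit1, Ifit3 and Ifit3b. Counts that were not whole, which come from such sharing, also occurred in 24 libraries for Parp9 and Dtx3l. They occurred in 23 for Trim30a and Trex1, in 22 for Sp100 and in fewer for some other members.

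Helz2 read 74.9, 73.9 and 77 CPM against 139.7, 121 and 293 CPM (-1.29 ± 0.33, edgeR adjusted p = 0.00347), again with every tumour below. Samd9l, an antiviral restriction factor, read 70.2, 94.6 and 83.5 CPM against 125, 83.1 and 297 CPM (-1.02 ± 0.34, 0.0174) with an overlap. Untreated KO library 3 weighed on the list: without it 6 members were called higher and 4 lower and the median was -0.03, and Oas1a went to -1.0 (edgeR adjusted p = 0.0277) and Oas1g to -1.42 (0.0125). Without KO tumour 1 the counts were 3 and 8.

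Tumours of the 2 genotypes were not told apart for any member. No member passed (0 of 44 by edgeR against 0.0% of 17245 genes, and 0 by DESeq2), while 9 were lower in KO at an unadjusted p under 0.05, against 2.19% of genes. The median log2 fold change was -1.12 against -0.01 over all genes, and 43 of 44 values lay below 0. Trim30a, an inhibitor of inflammatory signalling, was the single member without overlap (5.07% of genes), with 9.6, 11.4 and 11.8 CPM in KO and 45.7, 11.9 and 48.2 CPM in WT (-1.69 ± 0.52, edgeR adjusted p = 0.942). Ifi44 had the lowest value, 3.62, 5.37 and 2.32 CPM in KO and 27.6, 1.64 and 40.2 CPM in WT (-2.62 ± 1.04), and Oas3 the next, 6.32, 10.6 and 11.4 CPM and 68.2, 5.17 and 60.5 CPM (-2.25 ± 0.88). In both, WT tumours 1 and 3 were high and WT tumour 2 was below or within the KO values.

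This split was general among the members. WT tumours 1 and 3 lay above all 3 KO tumours in 40 members (11.3% of genes), the exceptions being Ifnar1, Ifnar2, Ifitm3 and Irf9, and WT tumour 2 lay below all 3 KO tumours in 26 (19.5%). Ifitm3 and Ifnar1 were nearest to equal, at -0.10 ± 0.40 and 0.02 ± 0.14, and their signs turned when some single tumours were left out.

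The remaining members are given by group mean ± SD (n = 3). Irf9, the DNA-binding subunit of ISGF3, had 31.6 ± 4.41 CPM in untreated WT, 65.2 ± 29.4 CPM in untreated KO, 92.2 ± 38.6 CPM in WT tumours and 79.9 ± 21.9 CPM in KO tumours. It rose in WT tumours (1.54 ± 0.31, edgeR adjusted p = 0.00052), and in KO tumours the log2 fold change was 0.29 ± 0.30. Dhx58, which encodes the RIG-I relative LGP2, had 9.73 ± 1.5, 27 ± 19.3, 23.9 ± 18 and 9.1 ± 1.21 CPM in those 4 groups. It rose in WT tumours (1.3 ± 0.53) and fell in KO tumours (-1.57 ± 0.53).

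Ifit1, which binds uncapped viral RNA, had 6.17 ± 4.33 CPM in untreated WT, 94.4 ± 128 CPM in untreated KO, 67.4 ± 47.3 CPM in WT tumours and 18.8 ± 10.1 CPM in KO tumours. The SD in untreated KO was larger than the mean, since library 3 read 241 CPM. Ifit1 rose in WT tumours (3.45 ± 0.92, edgeR adjusted p = 0.0045) and fell in KO tumours (-2.33 ± 0.87, 0.0322). Ifit3 and Ifit3b, whose printed promoters are nearly alike, had 8.37 ± 1.32 and 3.26 ± 0.412 CPM in untreated WT and 29.2 ± 24.1 and 17.2 ± 13.3 CPM in WT tumours. Of the pair, Ifit3b rose (2.39 ± 0.73, edgeR adjusted p = 0.0111), and for Ifit3 the p was 0.0573. Oasl1, an OAS-like protein that restrains Irf7 translation, fell in KO tumours from 63.2 ± 50.4 to 18.8 ± 7.53 CPM (-1.75 ± 0.50).

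Among other effectors, Rsad2, the radical SAM enzyme viperin, had 3.42 ± 1.87 CPM in untreated WT and 17.8 ± 15.3 CPM in WT tumours, and 20.1 ± 19.7 CPM in untreated KO and 4.84 ± 1.19 CPM in KO tumours. It rose in WT tumours and fell in KO tumours (2.38 ± 0.81 and -2.05 ± 0.79). Cmpk2, the nucleotide kinase gene beside it, Bst2, which tethers budding virions, and Rtp4 rose in WT tumours by 1.75 ± 0.51, 2.35 ± 0.58 and 2.8 ± 0.61. Bst2 went from 6.5 ± 1.23 to 33.1 ± 24.4 CPM and Rtp4 from 6.25 ± 1.81 to 43.7 ± 27.9 CPM. Mx2, the member with the fewest counts, went from 0.48 ± 0.152 to 4.1 ± 3.04 CPM (3.08 ± 0.92, edgeR adjusted p = 0.00985).

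Parp9, the partner of DTX3L, had 53.6 ± 7.43 CPM in untreated WT and 160.2 ± 64.9 CPM in WT tumours and rose (1.58 ± 0.32, edgeR adjusted p = 0.000492), and in KO tumours its log2 fold change was 0.03 ± 0.31. Ifi35 and Trex1, a DNA exonuclease that limits sensing of self DNA, rose in WT tumours by 1.19 ± 0.29 and 0.93 ± 0.29. Sp100, a nuclear body protein, fell in KO tumours from 42.8 ± 16.5 to 16.6 ± 5.96 CPM (-1.37 ± 0.42, edgeR adjusted p = 0.0109) and was 35.2 ± 20.2 CPM in WT tumours against 32.3 ± 10.3 CPM in untreated WT. Eif2ak2 had 44.5 ± 6.81 CPM in untreated WT and 58.8 ± 18.4 CPM in WT tumours, and passed in no comparison.

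The change from untreated colon was also compared directly between genotypes, as a difference of log2 fold changes (KO minus WT). It was below 0 for 44 of 44 members at day 7, day 13 and in tumours, with medians of -1.92, -1.90 and -2.60 against 0.01, -0.01 and -0.02 over all genes. None passed edgeR's test (0 of 44 each, against 0.0%, 0.011% and 0.0% of genes). At an unadjusted p under 0.05, 39, 37 and 39 members were lower (6.87%, 8.53% and 5.95% of genes). DESeq2 called 21, 21 and 25, counts without a share of all genes beside them. For Zbp1 the difference was -4.03 ± 0.72 at day 7, -2.97 ± 0.71 at day 13 and -4.18 ± 0.82 in tumours (edgeR adjusted p = 0.168, 0.1 and 0.292). Oas3 gave -6.3 ± 1.47, -5.93 ± 1.45 and -7.41 ± 1.54, while Ifnar1 gave -0.17 ± 0.16, -0.19 ± 0.16 and -0.10 ± 0.17. The 3 differences share the 6 untreated libraries. Without untreated KO 3 the medians were -1.17, -1.07 and -1.74, with 1 call at day 7, and without untreated KO 2 there were 12, 15 and 14 calls. Omitting WT day 13 library 2 gave 5 calls at day 13, and omitting WT tumour 2 gave 20 in tumours.

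The interferons themselves were almost not seen. Of 20 genes for type I and type III interferons, 14 had no count in any library, and the others held 36 counts in the 24 libraries together. Ifnb1, for interferon beta, had 0 in each, which allows up to 3 counts in a library. Ifne, an interferon of epithelia, had 3, 4 and 4 counts in the KO tumours, the highest of the 20 genes. None could be tested.

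Of 13 further genes of interferon receptor signalling, 3 rose and 0 fell in WT at day 7 (8.52% and 7.77% of all genes), 4 rose and 0 fell in WT at day 13 (3.21% and 1.03%), and 5 rose and 1 fell in WT tumours (27.6% and 21.2%). Socs3 and Socs1, feedback inhibitors of cytokine receptors, rose in WT at day 7 (3.93 ± 0.68 and 2.75 ± 0.69). In KO at day 7, 3 rose, Socs3 (2.67 ± 0.64), Stat3 and Ptpn2, and 2 fell, the receptor chains Ifngr2 (-0.66 ± 0.13) and Il10rb (-0.52 ± 0.11), against 8.57% and 4.07% of genes. In KO tumours 2 rose and 2 fell (26.4% and 23.5% of genes).

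Of 16 genes of the sensing pathways upstream of interferon, 6 rose in WT at day 7 (8.52% of all genes), 2 in KO at day 7 (8.57%) and 2 in WT at day 13 (3.21%), and 0 fell. Cgas, the cytosolic DNA sensor, rose in both genotypes at day 7, by 1.61 ± 0.24 in WT (edgeR adjusted p = 0.00147) and 1.78 ± 0.24 in KO (0.000419). Tmem173, which encodes its adaptor STING, rose by 1.31 ± 0.38 in WT and 1.41 ± 0.38 in KO. In tumours Tmem173 rose by 3.93 ± 0.44 in WT and 4.01 ± 0.44 in KO, while Mavs, the adaptor of RIG-I and MDA5, fell, with a log2 fold change of -0.85 ± 0.16 and -1.13 ± 0.16. In all, 5 rose and 2 fell in WT tumours (27.6% and 21.2% of genes) and 4 rose and 5 fell in KO tumours (26.4% and 23.5%). Over the colon conditions, Irf5 (-1.07 ± 0.27) and Tlr7 (-1.3 ± 0.33) were lower in KO.

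Interferon gamma targets and antigen presentation genes, a list of 23 of which 22 could be tested in colon, were set beside the members. In WT 13 rose at day 7 (8.52% of all genes) and 11 at day 13 (3.21%), and 22 of 23 rose in WT tumours (27.6%). In KO, 2 fell at day 7 (Ido1 and Irgm2; 4.07% of genes), 0 were called at day 13 (0.0276%), and 4 rose in tumours (26.4%). Against WT at day 13, 4 were lower in KO (1.86%): the chemokines Cxcl9 (-6.72 ± 1.39, edgeR adjusted p = 0.0217) and Cxcl10 (-5.58 ± 1.13, 0.0205) and the GTPases Gbp4 (-3.59 ± 0.67, 0.0171) and Gbp5 (-3.05 ± 0.67, 0.0279). In untreated colon 0 were called, with a median of 1.0 for KO against WT.

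The median of the interferon gamma list, on the scale used above for the members, was 1.42, 0.31 and 0.76 in untreated KO 1 to 3, so that library 3 was not the highest there. In WT tumours it was 3.0, 1.15 and 3.24, with tumour 2 lowest, as for the members. On day 7 it was 1.07, 1.56 and 1.99 in WT and -0.08, 0.20 and 0.31 in KO, and on day 13 2.45, 0.66 and 1.57 and 0.38, 0.18 and 0.81. Ifng, which encodes interferon gamma, read 1.72, 0.0349 and 1.59 CPM in WT tumours and 3.5, 0.0418 and 0.0483 CPM in WT at day 13. It was high in WT tumours 1 and 3 and in day 13 library 1, and near 0 in the other 3 libraries.

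**Figure D4:**
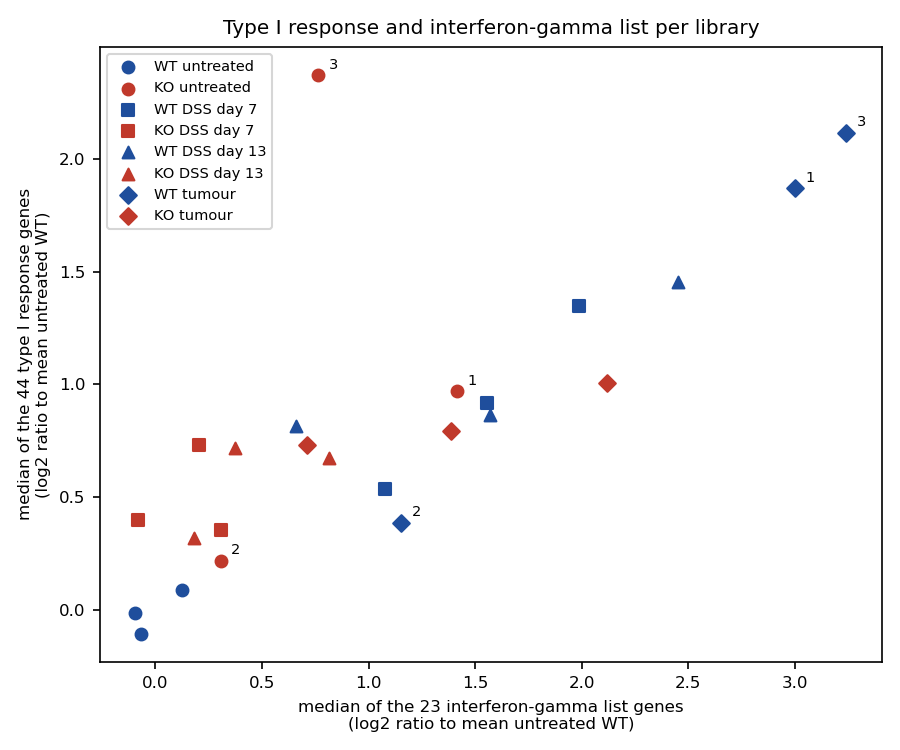
Each point is 1 library: horizontal axis, median of the 23 interferon gamma list genes; vertical axis, median of the 44 members, both as log2 ratio to mean untreated WT; blue is WT, red is KO, shape is condition. Untreated KO library 3 stands at 2.37 on the vertical axis and 0.76 on the horizontal, while WT tumours 1 and 3 are high on both.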

How the data were processed

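Per the labels' protocols, RNA came from washed colon or tumours by Trizol and went into Illumina libraries. Per the submitters' processing notes, STAR 2.7.6a, RSEM 1.3.1 and the build GRCm38 were used. The annotation release and the strand setting were not stated there, so the reads of genes that overlap or lie antisense cannot be told apart. The authors deposited expected counts, estimates that share a read among the genes it fits (11.0% to 12.4% of values per library were not whole), and TPM scaled to RSEM's effective lengths, per the file headers. TPM served only for levels between genes.

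The members and the lists of context genes and markers were chosen with earlier results of these data known. A gene of the signalling list is not reported by name here. Groups came from the labels, and replicate numbers from accession order. Expected counts were rounded and tested with edgeR 4.0.16 (R 4.3.3): TMM, minimum count 10 and minimum total 15, a robust quasi-likelihood F test, and Benjamini-Hochberg adjustment over all genes of a comparison at 0.05. Colon comparisons used 18 libraries (18102 genes), tumours between genotypes 6 (17245) and tumours against colon 24 (19056). The standard error was the absolute log2 fold change divided by the square root of F. Fits were tested on simulated data. The named genes were the 2 highest mean levels in each role, the members with the highest and lowest fold changes of each comparison between genotypes, and in the other comparisons up to 6 called members with the smallest p; further examples were picked with their values known. Other settings tried were DESeq2 1.42.0, RLE size factors, no filter or a stricter one, other sets of libraries in the fit, sex as a covariate, and each library left out in turn.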

Additional observations from a re-analysis of the deposited data

How the results depend on the processing

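Counts of called members depended on the setting. With DESeq2 they were 18 for KO against WT untreated, 2 at day 7 and 2 at day 13, 17 for WT at day 7, 21 for KO at day 7, 16 for WT at day 13, and 21, 21 and 25 for the differences between genotypes in the change at day 7, day 13 and in tumours. RLE size factors gave 4 for WT at day 13. Without a filter there were 0 for KO against WT at day 13, 1 for the mean of the colon conditions, 1 for WT and 0 for KO at day 7, and a stricter filter gave 11 for KO at day 7. With only the compared groups in the fit the counts were 0 for KO against WT at day 13, 7 for WT at day 7, 0 for KO at day 7 and 10 for KO tumours. Sex as a covariate gave 0 for KO against WT at day 13, 1 for WT at day 7 and 0 for KO at day 7. Taking untreated KO library 3 out of the shared fit gave 2 for KO against WT at day 13, 23 for WT at day 7 and 22 for WT at day 13. Without the 4 libraries with repeated sample numbers there were 0 for the mean of colon conditions, 1 for WT at day 7 and 0 for WT at day 13.

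Leaving out 1 library at a time gave 0 to 13 calls for KO against WT untreated, 0 to 2 at day 7, 0 to 2 at day 13, 0 to 4 for the mean and 0 in tumours. The counts were 1 to 3 for WT and 0 to 25 for KO at day 7, 0 to 6 for WT and 0 for KO at day 13, 24 to 36 for WT tumours and 10 to 29 for KO tumours. For the differences between genotypes they were 0 to 12 at day 7, 0 to 15 at day 13 and 0 to 20 in tumours. The share of all genes called is not given for these omissions or for the settings above. Such counts therefore have no background beside them, here and in the results.

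For 44 single-gene values, 642 alternatives gave the same side of the threshold and direction in 505, a lost call in 101, a new call in 10 and a turned sign in 26. The turned signs belonged to 7 values that lay between -0.21 and 0.131. For Ifnar2 in untreated colon they were 0.007 with DESeq2, 0.007 with RLE, 0.012 without a filter and 0.036 without the 4 repeated-number libraries, and for Ifi27l2a there 0.102 with sex and 0.306 without those libraries. Helz2 at day 7, KO against WT, became -0.010 with no filter, -0.015 with the stricter one, -0.034 with sex and -0.031 with only the compared groups, and Lgals3bp at day 13 became -0.045 with sex. With 1 library left out at a time, the log2 fold changes ran from -0.068 to 0.011 for Ifnar2, and from -1.195 to 0.173 for Ifi27l2a in untreated colon, from -0.058 to 0.361 for Eif2ak2 and -0.165 to 0.312 for Helz2 at day 7, from -0.020 to 0.374 for Lgals3bp at day 13, and from -0.410 to 0.331 for Ifitm3 and -0.073 to 0.122 for Ifnar1 in tumours. Where no value above shows it, the cause was not tested.

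The limits are the 3 libraries of a group, of which 1 could carry a result, the whole tissue, and sex. Sex cannot be separated from genotype at day 13 or from the day 13 change in KO, and was not balanced at day 7. Reads that fit more than 1 gene were split by estimate. No paired analysis was possible because the labels carry no replicate numbers. Each member had at least 8 counts in each library, and the interferons had too few to be tested.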
